A study of Mus musculus with 12 samples.

Results

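The 10 genes described here encode ligands, receptors and effectors of transforming growth factor beta (TGF-beta) signalling. They were taken by gene symbol from the 545 endogenous genes of a NanoString nCounter mouse immune panel. The ligands were Tgfb1, Tgfb2 and Tgfb3, the receptors Tgfbr1 and Tgfbr2, and the Smad proteins Smad3 and Smad5. The remaining members were Ski, Runx1 and Tgfbi. The panel counts fluorescent barcodes, here on cDNA that was made from the RNA and amplified by PCR. The counts are therefore not numbers of transcript molecules. The panel had been run on microglia sorted from the hippocampus of male Balbc mice at postnatal day 28. The 6 control samples came from pups for which the labels name no treatment. The 6 BDS samples came from pups exposed to brief daily separation, 15 min a day away from the mother from postnatal day 1 to 21. All 12 samples came from different litters per the design text, so the spread between them is biological as well as technical.

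TGF-beta ligands are secreted as inactive complexes and, once released, bring a type II receptor (Tgfbr2) together with a type I receptor (Tgfbr1). The type I receptor phosphorylates Smad3 and its close relative, which then enter the nucleus, whereas Smad5 is used mainly by receptors for bone morphogenetic proteins. Microglia need TGF-beta signalling to acquire and keep their adult expression programme.

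Levels are given as normalized counts, that is, barcode counts divided by a scaling factor from 6 housekeeping genes of the same sample. Probes differ in efficiency, so the counts of different genes do not rank their abundance. A gene counted as above background in a sample where its count exceeded the mean plus 2 SD of the negative-control probes, a threshold of 15.3 to 21.8 counts. By the rule that at least 5 of 12 samples lie above background, 9 of the 10 genes and 357 of all 545 genes were tested. Total counts of endogenous and housekeeping genes were 846414 to 1373840 in controls and 592159 to 1129518 in BDS. All 10 microglial markers found on the panel, Cx3cr1 and Csf1r among them, were above background in all 12 samples. Of 8 T cell markers, 4 were above background in 0 of 12 samples, Cd3d and Cd3e among them, and the other 4 in 1 to 11 samples, with Lck the most often. In a bulk sample, fewer cells of a type and less RNA per cell cannot be told apart.

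The samples BDS 21, BDS 25 and BDS 55 stood apart from the other 9. Their scaling factors, at 0.61, 0.65 and 0.85, were lower than those of all the others, which ran from 0.87 in control 5 to 1.47. Their ratios of Rpl19 to Polr2a counts, both housekeeping genes, were 0.79, 0.61 and 0.47, against 0.11 to 0.27 elsewhere. Some marker sums also lay outside the control range in them. The summed normalized count of the 10 microglial markers was 335895 to 384819 in these samples, 289226 to 331207 in controls and 288658 to 292519 in the other BDS samples. The 10 markers did not move together: in all 3 samples, 4 lay above every control, Csf1r among them at 106688 to 129944 against 80581 to 91004, and 1 lay below, Fcgr1, at 12190 to 12656 against 13324 to 14550. The sum of 7 B cell markers, of which 3 were tested and Pax5 and Cd22 were never above background, was 3871 to 4373 in these samples, 3122 to 3524 in controls and 3063 to 3652 in the other BDS samples. For 4 markers of blood monocytes and border macrophages, 2 of them tested and Cd163 never above background, it was 271 to 304, 310 to 513 and 322 to 472 in the same order. The sums for endothelial cells, T cells, NK cells, neutrophils and other brain cells overlapped between these samples and the controls. Of the 2 endothelial markers, Cdh5 lay below every control in all 3 samples, at 97 to 106 against 121 to 188, and Pecam1 overlapped the controls. Of 5 NK cell markers, 3 were above background in all 12 samples and 2 in none, and of 4 neutrophil markers 2 were so in some samples and 2 in none. The part of these differences in the results was not tested, and the fold changes of the members, the ratios and the list medians are given with and without them.

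The comparison of BDS with control asked whether the TGF-beta genes of hippocampal microglia differ 7 days after the last separation. Ski, a repressor that Smads recruit to DNA, and Tgfbr2, the receptor that binds the ligand, were the members with the smallest p-values, and both were lower in BDS. Smad3, the effector Smad, was also lower, by a smaller amount. Tgfb1, a ligand that microglia make, had a log2 fold change near 0. Of the 9 members, 0 passed an adjusted p of 0.05 in edgeR's quasi-likelihood test, as did 0 (0%) of the 357 genes, 44 of which were at an unadjusted p under 0.05. At an unadjusted p under 0.05, 3 of the 9 members were lower in BDS and 0 higher, beside 11.5% of all genes tested that were lower and 0.84% that were higher. Across the 9 members tested, 8 had a log2 fold change below 0, as had 66.1% of all genes tested. The median was -0.18 for the members and -0.10 for all genes. Without BDS 21, BDS 25 and BDS 55 these medians were -0.10 and -0.09.

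**Figure D1:**
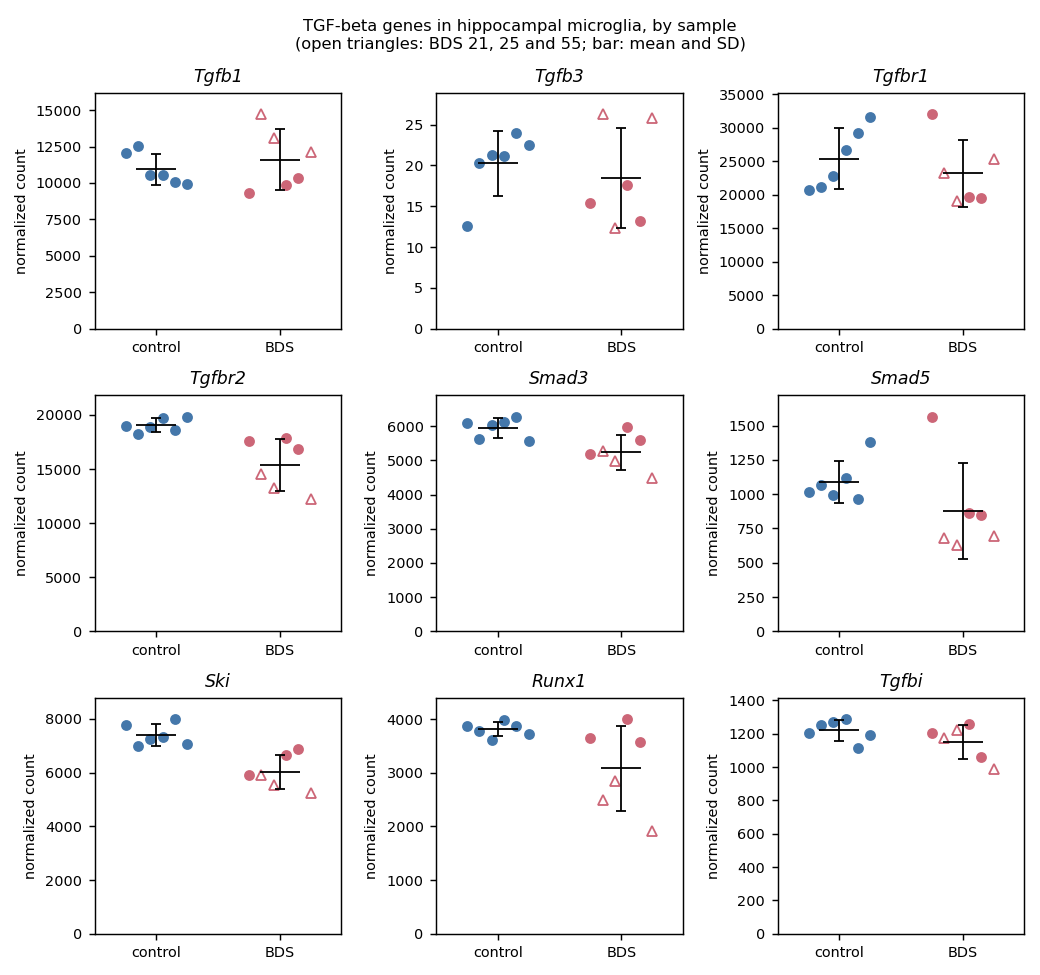
Normalized counts (vertical axes, from 0) of the 9 members tested, each point a sample, with controls in blue, BDS in red and open triangles for BDS 21, BDS 25 and BDS 55. Bars give the mean and SD over 6 samples. Every BDS point of Tgfbr2 and Ski lies below every control point, while the groups overlap for the other 7 genes.

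Among the ligands, Tgfb1 was abundant in every sample. Its normalized counts in controls had a lowest value of 9955, a median of 10553 and a highest value of 12501. In BDS these values were 9321, 11237 and 14715. The BDS samples fell on both sides of the controls, with BDS 21 and BDS 25 above the highest control and BDS 7 and BDS 35 below the lowest. For Tgfb1 the log2 fold change was 0.08 ± 0.11 (SE), with a 95% interval of -0.16 to 0.32 (edgeR, adjusted p = 0.72). The mean of BDS 21, BDS 25 and BDS 55 was 13301 ± 1318 normalized counts (SD, n = 3), and that of the other BDS samples was 9859 ± 523 (SD, n = 3). The higher normalized value came with lower counts before scaling, at 8486 to 10338 in those samples against 10541 to 14634 in controls. The value for Tgfb1 turned without those samples to -0.15 ± 0.09 (SE).

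Tgfb2 and Tgfb3, the other TGF-beta isoforms, were at or near background. Tgfb2 gave 3 to 14 counts in controls and 4 to 10 in BDS and lay above the negative-control threshold in 0 of 12 samples, so it was not tested and no difference was detectable. Tgfb3 gave 11 to 33 counts in controls and 8 to 22 in BDS. It was above background in 5 of 6 control samples and in 1 of 6 BDS samples, BDS 55, and so met the rule for testing mostly through the controls. Its normalized counts overlapped, at 12.6 to 23.9 in controls and 12.3 to 26.3 in BDS, with a log2 fold change of -0.17 ± 0.22 (SE; edgeR, adjusted p = 0.70). The value for Tgfb3 ran from -0.08 without BDS 43 to -0.30 without BDS 55 when 1 sample was left out, and was -0.41 ± 0.21 (SE) without BDS 21, BDS 25 and BDS 55.

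The receptors differed in how tightly they were held among controls. Tgfbr2 had a lowest value of 18226, a median of 18900 and a highest value of 19838 normalized counts in controls. Its BDS values were 12263, 15698 and 17820. The highest BDS sample thus lay just below the lowest control, which was so for 2 of the 9 members, Tgfbr2 and Ski, and for 1.12% of all genes tested. Tgfbr2 had a log2 fold change of -0.31 ± 0.09 (SE), with a 95% interval of -0.51 to -0.11 (edgeR, adjusted p = 0.24). The SD was 3.33% of the mean in controls and 15.4% in BDS, where BDS 55, BDS 25 and BDS 21 were the lowest. BDS 7, BDS 35 and BDS 43 lay close together at 16848 to 17820. Without the 3 lowest samples, which are those that stand apart, it was -0.13 ± 0.05 (SE; edgeR, adjusted p = 0.77).

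The separation of the groups depended on the scaling. With TMM, which scales each sample to the genes tested themselves, the median of all genes was -0.01, the log2 fold change of Tgfbr2 was -0.22 and that of Ski -0.20. Both were at an unadjusted p under 0.05 in edgeR, as were 3.92% of all genes lower and 5.04% higher. The groups of both overlapped under TMM, where 0% of all genes had every BDS sample below every control. With all 14 housekeeping genes the log2 fold changes were -0.29 and -0.27 and the groups also overlapped (0.28% of all genes did not). With the 5 housekeeping genes that match the authors' own scaling, Ski alone of the members kept its groups apart, beside 0.56% of all genes. Scaling to the positive-control probes alone leaves in any difference in amplified cDNA between samples. It moved the median of all genes tested from -0.10 to -0.50. There 1 of the 9 members, Tgfbr2, was lower at an unadjusted p under 0.05, beside 9.52% of all genes, and no groups were separate (0%).

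Tgfbr1, the type I receptor, varied widely within both groups. Its normalized counts in controls ran from 20749 through a median of 24784 to 31628, and in BDS from 19122 through 21533 to 32045. BDS 7 lay above the highest control, and BDS 25, BDS 35 and BDS 43 were below the lowest. The log2 fold change was -0.13 ± 0.14 (SE), and its 95% interval was -0.44 to 0.17 (edgeR, adjusted p = 0.67). An interval this wide includes a change of the size seen for Tgfbr2. For Tgfbr1 the value was -0.25 without BDS 7, -0.06 without control 54 and -0.10 without BDS 21, BDS 25 and BDS 55.

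The promoters of Tgfbr2 and Ski are shown because these genes had groups that did not overlap, and that of Tgfbi because the gene is known to be induced by TGF-beta. Each is the 250 bases before the annotated start in RefSeq (build GRCm38.p6), read 5' to 3' on the strand of the gene. Capitals mark CAGAC or its complement GTCTG, the core that Smad proteins bind. The windows are chr9:116175364-116175613 (minus strand) for Tgfbr2, chr4:155222536-155222785 (minus strand) for Ski and chr13:56609336-56609585 (plus strand) for Tgfbi.
Tgfbr2: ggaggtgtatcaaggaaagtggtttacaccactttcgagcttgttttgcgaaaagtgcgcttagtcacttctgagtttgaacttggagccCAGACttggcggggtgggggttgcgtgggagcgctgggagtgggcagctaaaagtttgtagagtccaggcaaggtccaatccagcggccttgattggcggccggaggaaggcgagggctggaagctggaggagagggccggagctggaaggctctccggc
Ski: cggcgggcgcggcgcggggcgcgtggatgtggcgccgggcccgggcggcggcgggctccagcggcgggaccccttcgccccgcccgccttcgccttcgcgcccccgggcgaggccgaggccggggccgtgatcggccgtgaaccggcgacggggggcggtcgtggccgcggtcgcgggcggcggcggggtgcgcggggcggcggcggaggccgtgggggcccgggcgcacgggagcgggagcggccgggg
Tgfbi: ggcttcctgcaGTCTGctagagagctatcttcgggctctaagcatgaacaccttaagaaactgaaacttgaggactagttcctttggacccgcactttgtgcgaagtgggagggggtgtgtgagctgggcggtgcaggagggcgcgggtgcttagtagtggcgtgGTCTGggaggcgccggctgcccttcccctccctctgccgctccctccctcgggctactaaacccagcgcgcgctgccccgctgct
The Tgfbr2 window held this core once, beginning 160 bases before the start, and the Tgfbi window held 2, beginning 239 and 85 bases before it. The Ski window held 0 and was 87.6% G and C, against 58.4% for Tgfbr2 and 62.4% for Tgfbi. The core was found in 42.2% of all 32851 promoter windows of the same length. The Runx core TGTGGT or its complement ACCACA was in 0 of the 13 windows of the 9 members with an entry, and in 14% of all windows. A match describes the letters only.

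Smad3, the effector that the TGF-beta receptors phosphorylate, had normalized counts in controls with a lowest value of 5552, a median of 6066 and a highest value of 6277. The BDS values were 4476, 5224 and 5961. BDS 35 and BDS 43 lay within the control range and the other 4 BDS samples below it. Smad3 had a log2 fold change of -0.18 ± 0.08 (SE), with a 95% interval of -0.35 to -0.02 (edgeR, adjusted p = 0.36). It was -0.09 with TMM scaling, and -0.10 without BDS 21, BDS 25 and BDS 55, where the median of all genes was -0.09.

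Smad5, a Smad of the bone morphogenetic protein branch, had a lowest value of 964, a median of 1040 and a highest value of 1382 normalized counts in controls. In BDS these values were 626, 769 and 1566. The BDS samples fell apart: BDS 7 was above every control, and the other 5 were below every control. For Smad5 the log2 fold change was -0.31 ± 0.20 (SE), with a 95% interval of -0.73 to 0.11 (edgeR, adjusted p = 0.45). Of single samples left out, BDS 7 moved the value most, and the others gave -0.34 to -0.23. Without BDS 7 it was -0.56 ± 0.12 (SE; edgeR, adjusted p = 0.047), past the threshold that 1.12% of all genes passed in that setting. There 5 of the 9 members were lower at an unadjusted p under 0.05, beside 24.6% of all genes. For Smad5 without BDS 21, BDS 25 and BDS 55 the value was 0.00087 ± 0.20 (SE). BDS 7 was also the highest of all samples in Tgfbr1.

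Ski, which recruits co-repressors to Smad complexes, had a lowest value of 6990, a median of 7287 and a highest value of 7991 normalized counts in controls. In BDS these values were 5246, 5916 and 6888. All BDS samples lay below all controls, and the highest BDS sample, BDS 43, lay near the lowest control. Ski had a log2 fold change of -0.30 ± 0.08 (SE), with a 95% interval of -0.47 to -0.13 (edgeR, adjusted p = 0.17). Ski ranked 3 by p-value among the 357 genes. DESeq2 with the same scaling gave Ski an adjusted p of 0.043, a threshold passed by 1.68% of all genes. With voom and quality weights the adjusted p was 0.041 for Ski and 0.040 for Tgfbr2, and 4.48% of all genes passed. At an unadjusted p under 0.05, voom placed 5 of the 9 members lower, beside 23.8% of all genes. Over the alternatives run, the unadjusted p of edgeR, DESeq2, limma or voom for Ski ran from 0.0007 to 0.26. Without BDS 21, BDS 25 and BDS 55 Ski was at -0.19 ± 0.07 on the log2 scale (SE; edgeR, adjusted p = 0.77), and the 3 remaining BDS samples still lay below all controls. In that comparison of 9 samples the same held for 2 of the 9 members and for 3.92% of all genes tested, and 2 of the 9 members were at an unadjusted p under 0.05, beside 5.6% of all genes lower. With TMM scaling as well, the value for Ski was -0.11, and 0 of the 9 members were at an unadjusted p under 0.05 (edgeR; 2.24% of all genes lower). The groups of 0 members were then separate (0.56% of all genes).

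Runx1, a transcription factor that works with Smads, was split among the BDS samples. In controls its normalized counts had a lowest value of 3618, a median of 3828 and a highest value of 3992. In BDS these values were 1923, 3208 and 4000. BDS 21, BDS 25 and BDS 55 were at 2495, 2846 and 1923, below every control, while BDS 7, BDS 35 and BDS 43 were at 3650, 4000 and 3571, at or near the control range. For Runx1 the log2 fold change was -0.31 ± 0.15 (SE; edgeR, adjusted p = 0.38) with all samples and -0.03 ± 0.06 (SE) without those 3. Counts before scaling were 1519 to 1846 in them, 4019 to 4587 in the other BDS samples and 3393 to 5473 in controls.

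Tgfbi, a secreted matrix protein named for its induction by TGF-beta, differed little between the groups. Its normalized counts had a lowest value of 1114, a median of 1229 and a highest value of 1288 in controls, and of 991, 1189 and 1258 in BDS. The groups overlapped, with BDS 43 and BDS 55 below every control. Tgfbi had a log2 fold change of -0.08 ± 0.08 (SE), with a 95% interval of -0.26 to 0.09 (edgeR, adjusted p = 0.65). It was -0.05 without BDS 21, BDS 25 and BDS 55.

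**Figure D2:**
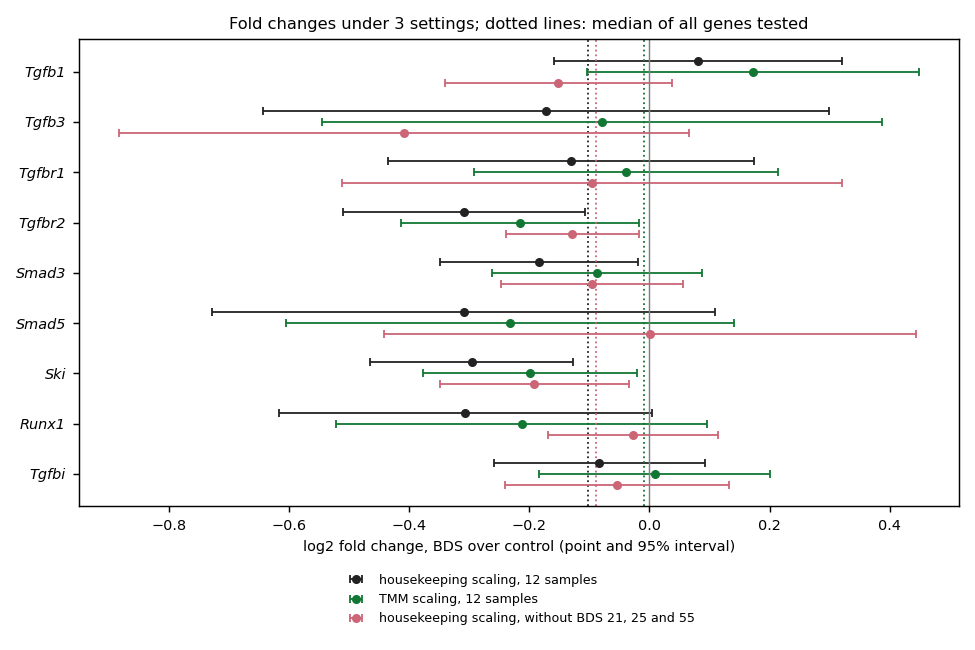
Log2 fold change of BDS over control (horizontal axis) with its 95% interval for the 9 members tested, with housekeeping scaling, with TMM scaling and without BDS 21, BDS 25 and BDS 55. Dotted lines mark the median of all 357 genes in each setting (-0.10, -0.01 and -0.09). The intervals of Tgfbr2 and Ski lie below 0 in all 3 settings, and their points lie nearer the dotted line without the 3 samples.

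The members did not move as a block across samples. Of the 9 members tested, the number that lay below the lowest control was 7 in BDS 25, 6 in BDS 43 and BDS 55, 5 in BDS 21 and BDS 35, and 4 in BDS 7. Of all 357 genes tested, 36.1% lay below the lowest control in BDS 25, 28% in BDS 43, 33.1% in BDS 55, 27.7% in BDS 21, 30.3% in BDS 35 and 18.5% in BDS 7. The number above the highest control was 2 in BDS 7 and BDS 21, 1 in BDS 25, BDS 35 and BDS 55, and 0 in BDS 43, beside 4.48% to 23.5% of all genes over the 6 samples. In BDS 7 the members above were Tgfbr1 and Smad5, in BDS 21 Tgfb1 and Tgfb3, in BDS 25 Tgfb1 and in BDS 55 Tgfb3, while in BDS 35 Runx1 was above by a small margin. The Tgfb3 count of BDS 21, 16, was below the background threshold of that sample, so its place above the controls has no weight. Ski and Tgfbr2 were the members below every control in all 6 BDS samples. In BDS 7, BDS 35 and BDS 43 the log2 difference from the control mean was -0.11, -0.10 and -0.18 for Tgfbr2, and -0.32, -0.16 and -0.10 for Ski.

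**Figure D3:**
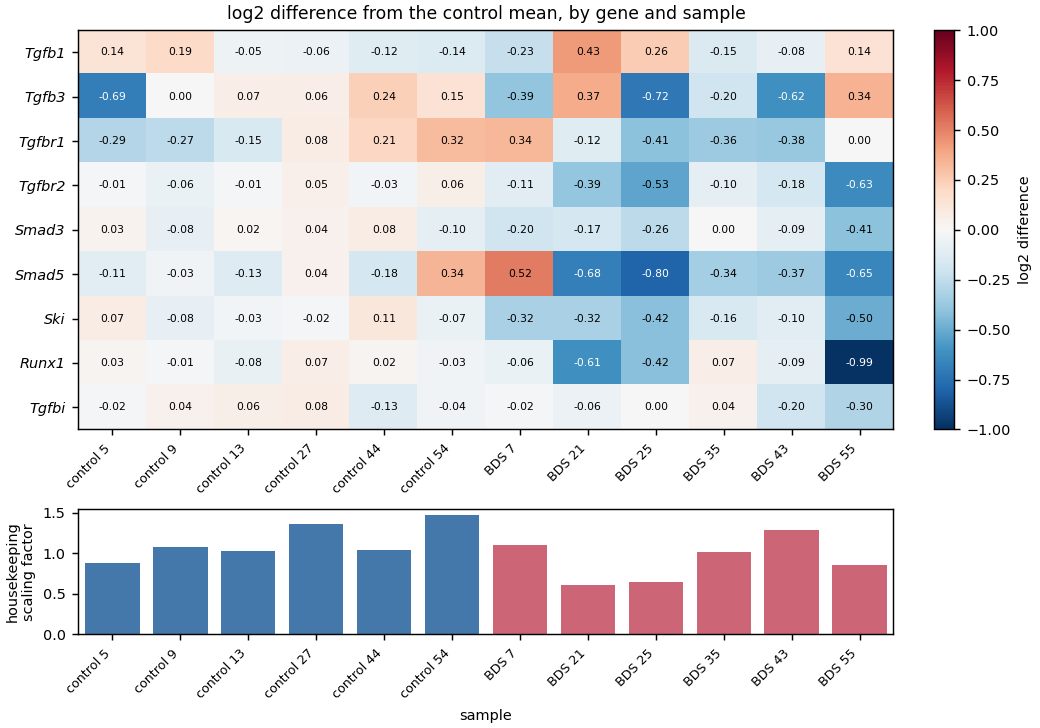
Upper panel: log2 difference of each sample's normalized count from the control mean (colour scale, with the value printed in each cell) for 9 genes and 12 samples. Lower panel: the housekeeping scaling factor of each sample. BDS 21, BDS 25 and BDS 55, with scaling factors of 0.61, 0.65 and 0.85, hold the lowest values of Runx1 and Tgfbr2.

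Ratios of 2 members within a sample need no scaling factor, and 4 were compared. These 4 were chosen with earlier results of these data known, and the p-values adjusted over them do not allow for that choice. The ratios show unequal change and say nothing of which gene is more abundant. The ratio of Ski to Smad3 counts had a lowest value of 1.19, a median of 1.26 and a highest value of 1.28 in controls. In BDS the values were 1.11, 1.13 and 1.23. BDS 43 alone of the BDS samples lay within the control range, and the other 5 were below it. The log2 ratio was 0.31 ± 0.04 in controls and 0.20 ± 0.06 in BDS (SD, n = 6; difference -0.11, two-sided exact permutation p = 0.0087, adjusted p = 0.035 over the 4 ratios). Ski thus was lower relative to Smad3 on average, while the ranges of the groups overlapped through BDS 43. An exact p under 0.05 was reached by 8.4% of the ratios of every 2 genes tested, and by 1 of these 4. Without BDS 21, BDS 25 and BDS 55 the difference was -0.10 (two-sided exact permutation p = 0.071, where 0.024 is the smallest that 9 samples allow).

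The ratio of Tgfb1 to Tgfbr2 counts, ligand to receptor, fell into separate ranges within BDS. Controls ran from 0.50 to 0.69 and BDS 7, BDS 35 and BDS 43 from 0.53 to 0.62. BDS 21, BDS 25 and BDS 55 ran from 0.99 to 1.01, above all other samples. The log2 difference between the groups was 0.39 (two-sided exact permutation p = 0.11, adjusted p = 0.22) and turned to -0.019 without those 3 samples. Tgfbr2 to Tgfbr1 differed by -0.18 (exact permutation p = 0.31, adjusted p = 0.41), or -0.011 without the same 3 samples, and Smad5 to Smad3 by -0.19 (exact permutation p = 0.41, adjusted p = 0.41), with overlapping groups in both. Without BDS 7 the log2 difference for Smad5 to Smad3 was -0.37 (two-sided exact permutation p = 0.0087), and without BDS 21, BDS 25 and BDS 55 it was 0.05.

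**Figure D4:**
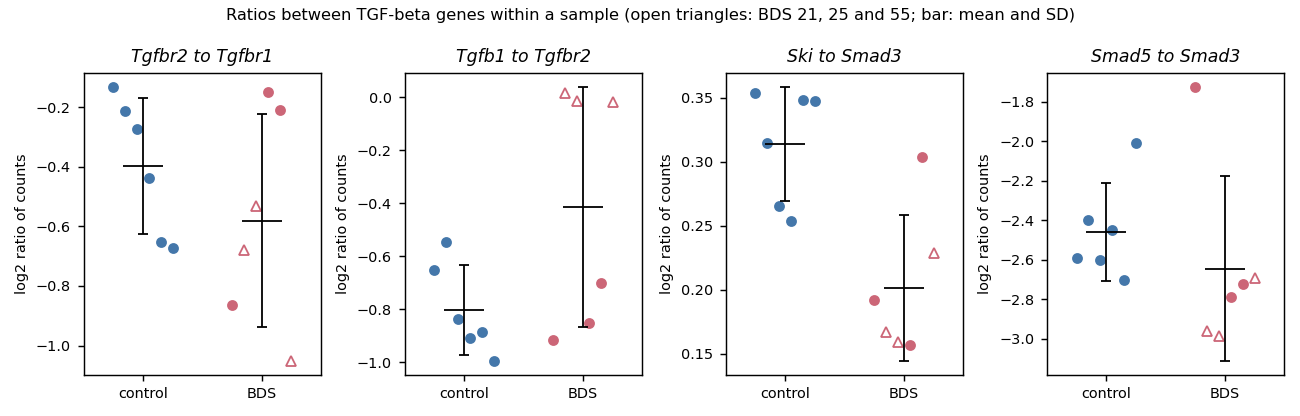
Log2 ratio of the counts of 2 members in the same sample (vertical axes), each point a sample, with bars for the mean and SD over 6 samples and open triangles for BDS 21, BDS 25 and BDS 55. For Ski to Smad3, 5 of the 6 BDS points lie below every control. For Tgfb1 to Tgfbr2 the triangles stand apart from all other points.

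Other genes of the panel that followed Tgfbr2 and Ski most closely over the 12 samples were found by the mean absolute difference of log2 normalized counts, each gene centred on its own mean. For Tgfbr2 these were Cd164, a sialomucin, Traf6, an adaptor ligase, Cd82, a tetraspanin, Ifnar1, an interferon receptor chain, and Cmklr1, a chemoattractant receptor. Their mean differences were 0.05 to 0.06, against a median of 0.27 over 356 genes. For Ski the closest gene was Smad3 at 0.06, followed by Stat5a, Irak2, Ifnar1 and Pou2f2 at 0.07 to 0.08, against a median of 0.26. Among the members, Ski was at rank 15 and Smad3 at rank 20 of the genes closest to Tgfbr2, while Tgfb1 was at rank 222. These ranks rest on all 12 samples.

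Related genes from lists drawn up by pathway were sparse on the panel. Of 49 further genes of the TGF-beta superfamily, 3 were on the panel and 2 were tested. Zeb1, a repressor in the TGF-beta response, was at 1393 ± 139 and 1133 ± 149 normalized counts (control, then BDS; SD, n = 6). Its log2 fold change was -0.30 ± 0.10 (SE; edgeR, adjusted p = 0.25), and -0.23 without BDS 21, BDS 25 and BDS 55. Foxp3, the regulatory T cell factor, was near background at 19.7 ± 5.0 and 27.0 ± 5.9 (SD, n = 6). Of the 5 genes of the non-Smad arm on the panel, 3 were tested, and all 3 had log2 fold changes below 0, as had 66.1% of all genes tested. Traf6, which links the receptors to kinases, was at 1498 ± 119 and 1245 ± 218 (SD, n = 6; log2 fold change -0.27 ± 0.11, SE; edgeR, adjusted p = 0.38). Mapk14, a kinase gene, had a log2 fold change of -0.24. In the absence of BDS 21, BDS 25 and BDS 55, Traf6 was at -0.06 and Mapk14 at 0.01.

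Of 24 listed microglial genes that are known to need TGF-beta, 7 were on the panel, while P2ry12, Tmem119 and Sall1 were not. Of the 7 on the panel, 4 had log2 fold changes below 0 and 3 above, beside 66.1% of all genes tested below 0. At an unadjusted p under 0.05 in edgeR were 0 of the 7. The median was -0.04, beside -0.10 for all genes tested, and -0.13 beside -0.09 without BDS 21, BDS 25 and BDS 55. Cx3cr1, the fractalkine receptor, ran from 13721 to 15127 normalized counts among controls and from 11988 to 14337 among BDS samples (log2 fold change -0.11 ± 0.06, SE). C1qa, a complement chain, was at -0.10. Csf1r and Trem2, receptors of microglia, were at 0.20 and 0.15 and both turned to -0.10 without BDS 21, BDS 25 and BDS 55. Of 16 genes on the panel known to be restrained by TGF-beta in microglia, 14 were tested. Of these, 9 had log2 fold changes below 0 and 5 above, beside 66.1% of all genes tested below 0. The median of the 14 was -0.24, and -0.19 without those 3 samples. At an unadjusted p under 0.05, 3 of them were lower, Cybb and Ifit2 among them, and 1 was higher, Il6, beside 11.5% and 0.84% of all genes. Cybb, an oxidase subunit, was at 25.0 ± 9.1 and 12.5 ± 5.4 normalized counts, and the cytokine Il6 was at 15.0 ± 3.1 and 23.0 ± 7.8 (SD, n = 6), both close to background. B2m and Cd86, which present peptides and costimulate T cells, had log2 fold changes of 0.05 and -0.17.

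In the authors' deposited table the mean of Ski is 7866 in controls and 6487 in BDS (fold 0.82, p = 0.0025). Tgfbr2 has means of 20248 and 16558 in the authors' deposited table (fold 0.82, p = 0.0091), and Smad3 has a fold of 0.89 (p = 0.0351). The authors' deposited table places Tgfb1 at a fold of 1.07 and the other members at 0.81 to 0.95, and lists Tgfb3 as above background in 67% of samples and Tgfb2 in 0%. These p-values are unadjusted. The 67% for Tgfb3 differs from the share found here, where it was above background in 5 of 6 control and 1 of 6 BDS samples. The cause of that difference was not tested.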

How the data were processed

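NanoString nCounter barcodes had been counted after conversion of 2 ng of RNA to cDNA and 5 rounds of PCR, per the labels' protocols. The deposited raw table holds whole-number counts for 573 probes, not normalized by the authors. The second deposited table holds those counts scaled by the authors to control probes and housekeeping genes, per the design text, and rounded (treated as scores), with each group's mean, a fold, an unadjusted p-value and the percent of samples over background, per the file headers. Reader software and settings are not given in the sources used here.

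Each sample was scaled by 6 housekeeping genes (Alas1, Gapdh, Oaz1, Polr1b, Sdha and Tbp), by their geometric mean relative to that over all samples. The design text speaks of 5 and names 6; the 5 without Sdha match the deposited scaling. BDS was compared with control by edgeR 4.0.16 in R 4.3.3 (quasi-likelihood test, no covariates) over 357 genes with Benjamini-Hochberg adjustment, with 95% intervals from its standard errors. Alternatives used limma 3.58.1 and DESeq2 1.42.0, other scalings, filters and pseudocounts of 1 and 10, and left-out samples. The test was checked on simulated counts with known scaling factors. That check required recovery only of changes larger than those of the members. Ratios were compared by exact permutation over 924 rearrangements, with a smallest p of 0.0022.

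The members, the lists, the ratios and the 3 samples set apart were chosen with earlier results of these data known. Named genes are all members, up to 4 genes per list with the smallest p, the 2 with the highest control mean per list and the 5 genes most like Tgfbr2 and Ski; a few list genes it selects are not reported here. All 10 transcript identifiers matched the RefSeq gene table (GRCm38.p6) under the same symbol. The files name no genome build.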

Additional observations from a re-analysis of the deposited data

Results flagged for a closer look

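Of 28 sets of 6 values checked, for 10 genes and 4 ratios in each group, 3 held a sample far from the other 5. Chance alone does this in about 1 of 20 sets. Smad5 in BDS 7, at 1566 normalized counts, lay far above the other BDS samples. The ratio of Smad5 to Smad3 counts in BDS 7, at 0.303, lay above the other BDS samples in the same way, and it shares its Smad5 count with the first. Tgfb3 in control 5, at 12.6 normalized counts, lay far below the other controls, at 11 counts and below the background threshold of that sample.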

How the results depend on the processing

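No paired analysis was possible because the control and BDS samples share no replicate number. The count of genes past the adjusted threshold was 0 with the housekeeping scaling in edgeR (44 at an unadjusted p under 0.05), 1 with positive-control scaling, 6 with DESeq2 and 16 with voom and quality weights, and 0 to 4 with 1 sample left out, the 4 without BDS 7. Genes at an unadjusted p under 0.05 were 41 lower and 3 higher. They were 14 and 18 with TMM, 14 and 15 with DESeq2 size factors, 85 and 11 with voom, 20 and 0 without BDS 21, BDS 25 and BDS 55, and 8 and 1 with TMM as well, a setting added after seeing the data. The higher genes were 5 with 5 housekeeping genes, 0 with positive-control scaling, 7 and 5 with limma and pseudocounts of 1 and 10, 8 with the deposited scores and 12 with no filter. With 1 sample left out they were 22 to 88 lower and 2 to 10 higher, with 22 lower without BDS 55, 23 without BDS 25 and 88 without BDS 7, and 10 higher without BDS 43.

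Of the members, 3 were at an unadjusted p under 0.05, against 1 with positive-control scaling, 5 with voom, 0 with TMM without the 3 samples, and 2 to 5 with 1 sample left out (5 without BDS 7). The 2 members with groups that did not overlap became 1 with 5 housekeeping genes and 0 with TMM, with 14 housekeeping genes, with positive-control scaling and with TMM without the 3 samples. The log2 difference in Ski to Smad3 was -0.096 without the 3 samples and -0.13 to -0.10 with 1 sample left out (exact permutation p 0.0043 to 0.017). Tgfb1 to Tgfbr2 turned to -0.019 without the 3 samples, with 0.30 to 0.49 over single samples left out, and Smad5 to Smad3 turned to 0.047, with -0.37 to -0.10. Tgfbr2 to Tgfbr1 was -0.011 without the 3 samples and -0.27 to -0.09 with 1 sample left out.

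Signs turned for Tgfb1 (-0.37 with positive-control scaling, -0.15 without the 3 samples, -0.077 with TMM as well), Tgfbi (0.0089 with TMM, 0.00025 with DESeq2 size factors, 0.020 with TMM without the 3 samples), Smad5 (0.00087 without the 3 samples, 0.055 with TMM as well) and Runx1 (0.052 with TMM without the 3 samples). Positive-control scaling moved the median of all genes from -0.10 to -0.50, and TMM and DESeq2 size factors moved it to -0.01 and -0.02. The cause of the sign changes was not tested, under these scalings or with samples left out. Tgfbr2, Ski, Smad3, Tgfbr1 and Tgfb3 kept their sign in all alternatives run. Counts at or near background limit what can be said of Tgfb3 and Tgfb2, of which Tgfb2 was not tested.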
